A study of Mus musculus with 30 samples.

Results

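Transcript levels of 10 GM501 twins were set against those of 10 KSOM(aa) controls, that is, the 10 arrays titled GM501 and the 10 titled KSOM(aa) among the 30 arrays of a series on monozygotic twin mouse blastocysts. A GM501 twin was a blastocyst grown from 1 sister blastomere of an embryo separated at the 2-cell stage and cultured singly in GM501 CULT, a medium for assisted human reproduction. A KSOM(aa) control was a blastocyst from an embryo left whole and grown alone in KSOM(aa), which is a medium for mouse embryos that contains amino acids. All 20 embryos came from B6C3F1 × CD1 matings after PMSG and hCG, were taken from the oviduct as zygotes, and reached the 2-cell stage in KSOM(aa). All were lysed singly at 4 days post coitum, Theiler stage 5, after 96 h of culture. The twins held about 40 to 50 cells and the controls about 80, per the labels. Medium, bisection and cell number therefore change together between the groups and cannot be told apart. Fewer cells of a type and less RNA per cell cannot be told apart either. The numbers of twins and controls name no shared embryo, so the comparison was unpaired, and the number of matings and culture days is not given in the labels.

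A blastocyst has an outer epithelium, the trophectoderm, which pumps ions and water into the cavity, takes up nutrients and later forms placenta. Its inner cell mass divides into epiblast, the source of the fetus, and primitive endoderm, which lays down the laminin-rich basement membrane of the yolk sac. Embryos at this stage take amino acids through dedicated carriers, make their own cholesterol and fatty acids when the medium holds none, and read the supply through SREBP factors for lipids, ATF4 for amino acids and MTF1 for zinc. Blastocysts from single blastomeres form at the usual time with fewer cells.

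With all 10 twins, cholesterol synthesis had the highest median difference among the gene lists with 10 or more genes tested, at 0.91 log2 units, and amino acid carriers, aminoacyl-tRNA synthetases and primitive endoderm genes had the lowest, at -1.14, -1.07 and -0.70. Among the 18086 genes tested with limma on the deposited log2 signals, 1194 rose in GM501 twins (6.6% of genes) and 1251 fell (6.92%) at an adjusted p under 0.05. The median difference over all genes, GM501 twins minus controls, was 0.11 log2 units as deposited, -0.13 after each array was centred on its own median, and -0.04 after quantile normalization. Centring moved the balance of calls: 257 genes rose (1.42%) and 2296 fell (12.7%), and quantile normalization gave 509 rises and 1939 falls. Every one of the 257 rises after centring was among the 1194 rises as deposited, and every one of the 1251 falls as deposited was among the 2296 falls after centring. Changes are given below as log2 differences of the deposited signals with limma's standard error (SE). A rise or fall counted as called in both settings was called as deposited and after centring. For a fall this asks no more than the call as deposited, and for a rise no more than the call after centring. Counts for the gene lists stand against the shares of all genes given here. With twins 7 to 10 alone these shares were 0.741% for rises and 0.57% for falls.

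The 20 arrays did not form 2 even groups. Array medians over all 65956 clusters were 4.59, 4.88 and 5.28 log2 units in GM501 twins and 4.59, 4.64 and 4.69 in controls (lowest, median and highest), with means of 4.88 ± 0.24 and 4.64 ± 0.03 (SD, n = 10 each; difference 0.24, two-sided permutation test, p = 0.00644). GM501 twins 1 to 6 had medians of 4.86 to 5.28, all above every control, whereas GM501 twins 7 to 10 lay at 4.59 to 4.66, inside the controls' range (difference -0.002). With the array median as a covariate in the fit, 58 genes rose (0.321%) and 38 fell (0.21%), so that most calls given below, with all twins, are lost. Idi1 (2.05 ± 0.28, adjusted p = 0.000908) and Acsl4 (1.70 ± 0.22, adjusted p = 0.000547) were among those that still passed. The leading principal component, which held 40.3% of the variance, put twins 1 to 6 at -86.5 to -49.2, twins 7 to 10 at 27.2 to 41.3 and controls at 22.1 to 39.9. The sets 1 to 6 and 7 to 10 were defined by these array medians, not by a label, so that their medians are a description with no test. With twins 7 to 10 alone against the 10 controls, 134 genes rose (0.741%) and 103 fell (0.57%), and the median difference over all genes was -0.01. The 4 twins also give fewer arrays to the test. Of the 198 genes named by rule, 181 were called with all twins as deposited and 27 with twins 7 to 10 alone. The main results are therefore given with all 10 twins and with twins 7 to 10 alone.

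**Figure D1:**
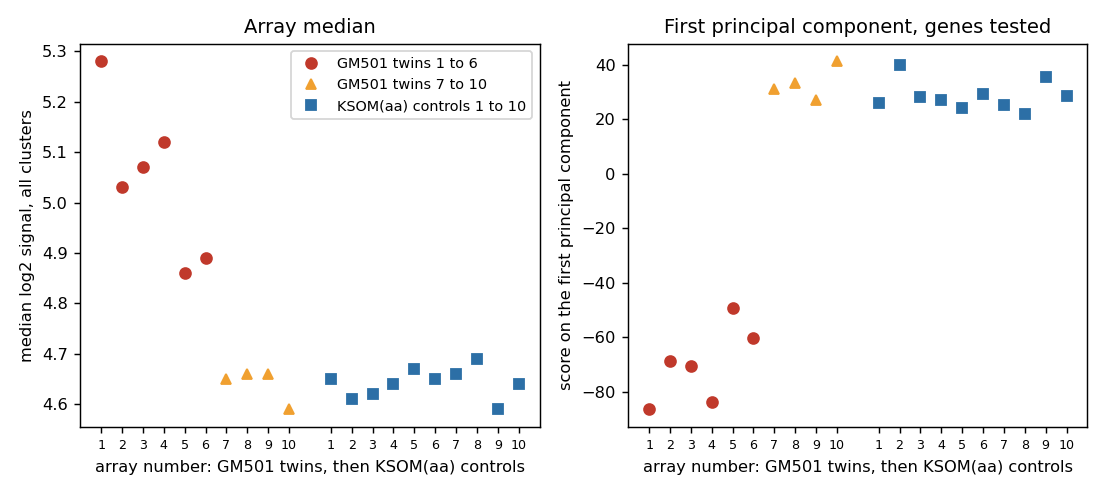
Median log2 signal of each array over 65956 clusters (left) and its score on the first principal component of 18086 genes (right), for GM501 twins 1 to 10 and then KSOM(aa) controls 1 to 10; each point is 1 blastocyst. Twins 1 to 6 lie apart from the controls on both axes, with medians of 4.86 to 5.28, and twins 7 to 10 lie among the controls, with medians of 4.59 to 4.66.

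The difference depended on the signal level. The genes were cut into 5 classes by mean signal. In the lowest class, 4.76 to 5.29 log2 units, 301 of 3618 genes rose and 11 fell as deposited, with a median difference of 0.22. In the highest class, 10.1 to 19.1, 235 of 3617 genes rose and 478 fell, with a median difference near 0. The median differences of the classes with twins 7 to 10 alone lay between -0.03 and 0.01. A gene with a low signal that rose as deposited moved in the direction of most genes of its level.

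**Figure D2:**
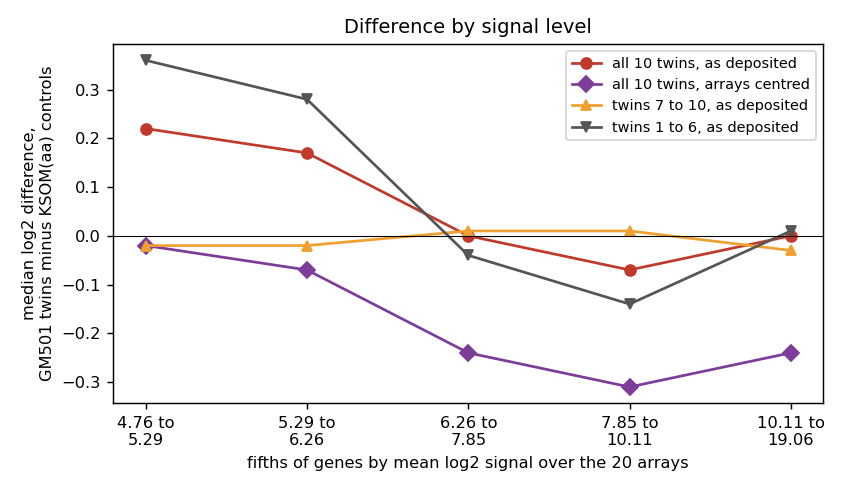
Median log2 difference, GM501 twins minus KSOM(aa) controls, in 5 classes of the 18086 genes by mean signal over the 20 arrays. With all 10 twins as deposited it is 0.22 in the lowest class and -0.07 in the fourth; with twins 7 to 10 it stays within 0.03 of 0 in every class; after centring it is below 0 in every class.

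The cholesterol synthesis genes that passed the test were all higher in GM501 twins. Of 20 listed genes, 15 were tested, 8 rose and none fell (6.6% and 6.92% of all genes), with a median difference of 0.91 against 0.11 over all genes. After centring 5 rose, and with twins 7 to 10 alone 10 rose and none fell, with a median of 1.36. The remaining listed genes were not analysed here.

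Idi1, which isomerises isopentenyl diphosphate, the building block of sterols and isoprenoids, lies at chr13:8885606-8892396 (GRCm38.p6). Its signal ran from 9.64 to 10.90 (median 10.30) in GM501 twins and from 6.97 to 8.95 (median 8.36) in KSOM(aa) controls. All 10 twins lay above all 10 controls, 1 of 14 genes of 18086 for which this held as deposited (0.0774%). The difference was 2.03 ± 0.22 (SE; adjusted p = 4.83e-05), and 1.97 ± 0.30 with twins 7 to 10 alone. The next enzyme, Fdps, makes farnesyl diphosphate and lies at chr3:89093588-89101967. Its signal ran from 13.94 to 15.20 (median 14.96) in GM501 twins and from 12.95 to 13.99 (median 13.56) in KSOM(aa) controls, and it was higher by 1.21 ± 0.16 (adjusted p = 0.000336). The ranges met only where the lowest twin, at 13.94, lay below the highest control, at 13.99.

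Fdft1, squalene synthase at chr14:63145150-63181687, ran from 10.08 to 11.02 (median 10.42) in GM501 twins and from 8.45 to 10.14 (median 9.56) in KSOM(aa) controls. The groups overlapped at their edges, and the difference was 1.06 ± 0.19 (adjusted p = 0.00417). Sqle, squalene epoxidase at chr15:59315092-59331193, ran from 11.61 to 12.82 (median 12.09) in GM501 twins and from 9.97 to 11.62 (median 10.82) in KSOM(aa) controls. Its difference was 1.40 ± 0.19 (adjusted p = 0.000399), and all 10 twins exceeded the median control. Cyp51, the lanosterol demethylase at chr5:4080674-4104697, ran from 9.02 to 10.81 (median 10.20) in GM501 twins and from 8.49 to 9.34 (median 8.94) in KSOM(aa) controls. It was higher by 1.22 ± 0.18 (adjusted p = 0.00117) with all twins and by 1.55 ± 0.13 (adjusted p = 0.000145) with twins 7 to 10. These 5 enzymes were called in both settings and again with twins 7 to 10 alone. The 3 settings share their controls and, in part, their twins, so they are not independent.

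Mvk, Lss and Hsd17b7 rose as deposited but did not pass after centring. Mvk, mevalonate kinase, differed by 0.97 ± 0.27 with all twins and 1.70 ± 0.28 with twins 7 to 10. Lss, lanosterol synthase, differed by 0.91 ± 0.25 and 1.59 ± 0.26, and Hsd17b7, a sterol ketoreductase, by 1.34 ± 0.33 and 1.94 ± 0.38 in the same order. All 3 passed with twins 7 to 10 alone. Twins 7 to 10 held the highest signal of each, as the plot of the pathway shows.

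Mvd, mevalonate diphosphate decarboxylase, and Nsdhl, a sterol dehydrogenase, passed with twins 7 to 10 alone and not with all 10. Mvd ran 7.03 to 8.92 in twins 7 to 10 and 6.27 to 6.82 in twins 1 to 6, against 6.00 to 7.45 in controls, so that its difference was 0.45 ± 0.33 over all twins and 1.43 ± 0.33 over twins 7 to 10. Nsdhl differed by 0.61 ± 0.31 and 1.30 ± 0.24. Pmvk, phosphomevalonate kinase, differed by 0.61 ± 0.24 (adjusted p = 0.0815) and Hmgcs1, which makes HMG-CoA, by 0.27 ± 0.49 (adjusted p = 0.688). Hmgcs1 was the most scattered member, running from 8.33 to 13.27 (median 10.56) in GM501 twins and from 9.09 to 11.59 (median 10.34) in KSOM(aa) controls. Ebp, the sterol isomerase, differed by -0.22 ± 0.20 and Dhcr7, the last reductase, by 0.11 ± 0.21, and these 4 genes passed in none of the 3 settings. Sc5d, a sterol desaturase, went the other way from most of the pathway within the twins: it ran 9.34 to 11.44 in twins 1 to 6 and 9.09 to 9.79 in twins 7 to 10, with a difference of 0.85 ± 0.31 over all twins (adjusted p = 0.0648) and 0.00 ± 0.20 over twins 7 to 10.

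**Figure D3:**
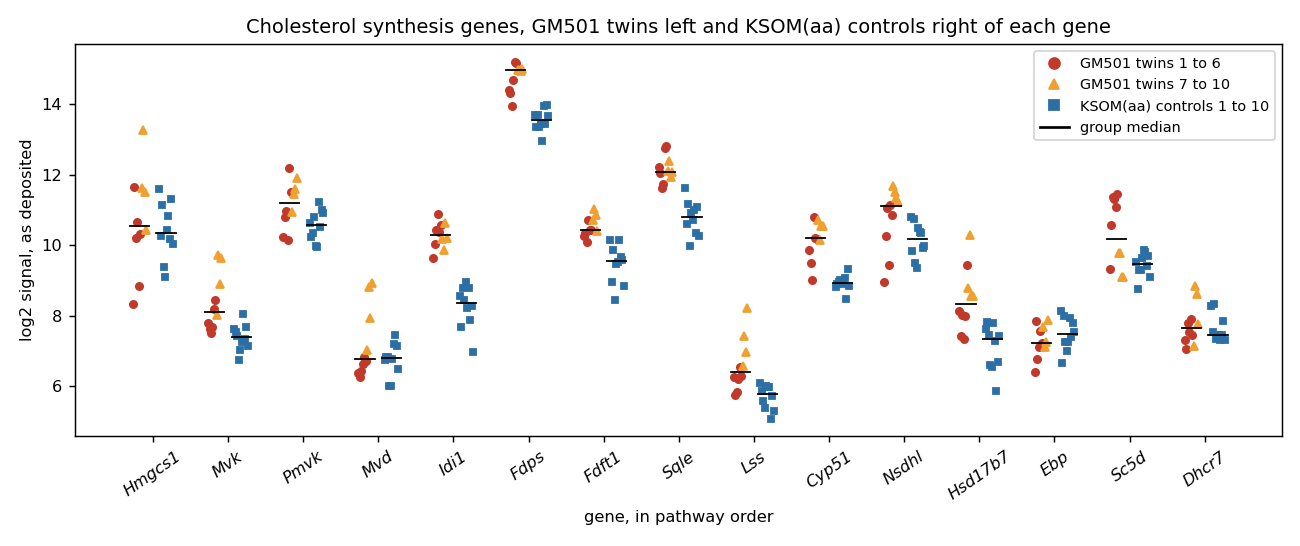
Deposited log2 signals of the 15 cholesterol synthesis genes tested, in pathway order, with GM501 twins left and KSOM(aa) controls right of each gene; each point is 1 blastocyst and the bar is the group's median. Idi1 separates the groups fully, while Mvd, Lss and Hsd17b7 are highest in twins 7 to 10 and Ebp and Dhcr7 overlap throughout.

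Genes around the pathway moved with it in part. Stard4, a carrier of sterols between membranes, ran from 8.71 to 11.25 (median 9.70) in GM501 twins and from 8.05 to 9.11 (median 8.40) in KSOM(aa) controls and rose by 1.34 ± 0.24 (adjusted p = 0.00399). Acat3, an acetyl-CoA acetyltransferase, is named after its values were seen; it ran from 7.44 to 8.76 (median 7.86) in GM501 twins and from 6.44 to 7.31 (median 6.95) in KSOM(aa) controls, with no overlap, and rose by 1.05 ± 0.15 (adjusted p = 0.000568). Of the 12 genes tested on the list of sterol regulation and uptake, 1 rose and 2 fell, with a median difference of 0.06 as deposited and -0.17 after centring. The 2 that fell were Npc1, which moves cholesterol out of lysosomes, by 1.48 ± 0.23, and Scap, which escorts SREBP factors, by 0.59 ± 0.13. Neither passed with twins 7 to 10 alone, where they differed by -0.96 and -0.34.

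The promoter windows of Idi1 and Cyp51 are shown because both genes rose in all 3 settings and share a short box that many sterol promoters hold. All windows shown are from RefSeq on GRCm38.p6, printed 5′ to 3′ in the direction of the gene. Those of Idi1 and Cyp51 lie mostly before the start of the gene and reach a short way past it. The capitals mark CCAAT, searched on both strands, so that ATTGG is a match on the other strand.
Idi1 (chr13:8885356-8885655, plus strand): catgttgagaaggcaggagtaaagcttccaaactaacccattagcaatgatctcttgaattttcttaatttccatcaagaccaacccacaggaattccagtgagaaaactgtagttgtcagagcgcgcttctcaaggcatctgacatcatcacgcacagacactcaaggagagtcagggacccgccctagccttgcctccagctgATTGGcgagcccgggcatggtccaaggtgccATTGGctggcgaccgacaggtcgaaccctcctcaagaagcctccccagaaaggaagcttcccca
Cyp51 (chr5:4104648-4104947, minus strand): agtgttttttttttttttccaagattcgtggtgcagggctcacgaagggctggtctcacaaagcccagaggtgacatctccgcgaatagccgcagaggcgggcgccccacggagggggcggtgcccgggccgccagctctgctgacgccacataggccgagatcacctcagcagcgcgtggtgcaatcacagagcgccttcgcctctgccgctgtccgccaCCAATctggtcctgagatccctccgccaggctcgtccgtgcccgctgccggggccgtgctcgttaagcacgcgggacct
Idi1 held 2 matches and Cyp51 held 1. Of the 15 cholesterol synthesis genes tested, 12 had a window in the table used here, and each of the 12 had CCAAT in at least 1 of its windows, 12 of 15 windows in all. Over all 32851 windows, 37.4% held it. The letters TCACNCCAC, a sterol response element core searched in the same way, were found in 1 of the 12 genes, Hmgcs1. That was 1 of the 15 windows, and 1.2% of all windows held them. A match is only a description of these letters.

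Fatty acid genes gave a mixed picture that turned on the twins. Of 15 genes tested on the list of synthesis and desaturation, 3 rose and none fell, in both settings, with a median difference of 0.24 as deposited and near 0 after centring; with twins 7 to 10 alone 4 rose and the median was 0.77. Acsl4, which activates arachidonic acid and is X-linked at chrX:142317993-142390802, ran from 7.76 to 9.10 (median 8.46) in GM501 twins and from 6.44 to 7.46 (median 6.72) in KSOM(aa) controls. All 10 twins lay above all controls, and the difference was 1.61 ± 0.17 (adjusted p = 4.83e-05) with all twins and 1.56 ± 0.20 with twins 7 to 10. Scd1, the stearoyl-CoA desaturase, ran from 12.74 to 14.34 (median 13.75) in GM501 twins and from 11.54 to 12.85 (median 12.60) in KSOM(aa) controls, and rose by 1.23 ± 0.21 (adjusted p = 0.00271); with twins 7 to 10 it differed by 1.00 ± 0.27 and did not pass (adjusted p = 0.0888).

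Fads2, the desaturase that starts the synthesis of long polyunsaturated fatty acids, rose by 3.02 ± 0.80 (adjusted p = 0.0235). It ran from 3.59 to 10.50 (median 7.95) in GM501 twins and from 3.25 to 6.67 (median 3.52) in KSOM(aa) controls. The controls but for 1 array at 6.67 lay below 4.76, the lowest mean of the genes tested, and within the range of the markers of absent cells given below, so the size of the difference is uncertain. The twins spread over most of the controls' range and above it. A second cluster of the same gene, at lower signal, ran from 4.66 to 7.03 in GM501 twins and from 4.41 to 5.60 in controls, with a difference of 0.87, so the clusters disagree in size but not in direction. With twins 7 to 10 alone Fads2 differed by 2.21 ± 0.76 and did not pass.

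The enzymes that build the fatty acid chain, named here after their values were seen, differed between the sets of twins. Fasn, fatty acid synthase, ran 10.42 to 11.32 in twins 7 to 10 and 7.74 to 8.67 in twins 1 to 6, against 8.22 to 9.60 in controls. Its difference was 0.24 ± 0.43 with all twins and 1.79 ± 0.24 (adjusted p = 0.00342) with twins 7 to 10. Acaca, acetyl-CoA carboxylase, differed by 0.28 ± 0.38 and 1.55 ± 0.17, and Acly, ATP citrate lyase, by 0.05 ± 0.33 and 1.22 ± 0.20, in the same order. None passed over all 10 twins and all 3 passed with twins 7 to 10 alone.

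The other large rises called in both settings were spread over many functions. Bhmt, which remethylates homocysteine with betaine and is known to appear at the blastocyst stage in mouse, ran from 5.23 to 10.48 (median 8.40) in GM501 twins and from 4.50 to 6.58 (median 5.40) in KSOM(aa) controls and rose by 2.79 ± 0.59 (adjusted p = 0.00951). Csta2, a stefin that inhibits cysteine proteases, rose by 2.40 ± 0.64, and Il1rn, the antagonist of the interleukin-1 receptor, by 2.25 ± 0.53. Il1rn lay at 5.33 to 10.68 in GM501 twins and at 4.51 to 6.08 in controls, so it was low in every control. Nat1, an arylamine acetyltransferase, rose by 1.84 ± 0.42, Pde8a, a cyclic AMP phosphodiesterase, by 1.81 ± 0.31, and Zdhhc2, a palmitoyltransferase, by 1.61 ± 0.28. Nat1 lay at 4.68 to 8.43 in GM501 twins and at 4.08 to 5.58 in controls. Its controls were within the range of the markers of absent cells given below, so the size of its difference is uncertain. Smim22, a small membrane protein, ran from 11.99 to 14.78 (median 14.05) in GM501 twins and from 11.52 to 12.79 (median 12.07) in KSOM(aa) controls and rose by 1.60 ± 0.29, and Capsl rose by 1.69 ± 0.41. Each had at least 9 of 10 twins above the controls' median, as the choice of genes required, and none of these 8 passed with twins 7 to 10 alone. There Bhmt differed by 2.64 ± 0.73, Pde8a by 1.25 ± 0.33 and Zdhhc2 by 1.19 ± 0.28 (adjusted p = 0.0576), Il1rn by 1.04 and Capsl by 1.06, and Csta2, Nat1 and Smim22 by 0.73, 0.53 and 0.78.

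Trophectoderm genes were lower in GM501 twins. Of 23 tested, 13 fell as deposited (6.92% of all genes did) and 14 after centring (12.7% did), and none rose. The median difference was -0.50 as deposited and -0.74 after centring. With twins 7 to 10 alone 2 fell and the median was -0.30. All 6 defining markers were detected in both groups, with gene medians from 6.83 to 17.64 in GM501 twins and from 7.61 to 18.06 in controls.

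Gata2, a transcription factor of the trophoblast at chr6:88193891-88207032, ran from 6.59 to 7.29 (median 6.83) in GM501 twins and from 7.31 to 7.82 (median 7.61) in KSOM(aa) controls. All 10 twins lay below all 10 controls, as for 20 genes of 18086 (0.111%), and the difference was -0.69 ± 0.11 (adjusted p = 0.00138) with all twins and -0.63 ± 0.12 with twins 7 to 10. Tfap2c, which acts with it in trophoblast, ran from 7.08 to 7.92 (median 7.40) in GM501 twins and from 7.75 to 8.67 (median 8.12) in KSOM(aa) controls and fell by 0.72 ± 0.14 on the log2 scale. Cdx2, the master regulator of the lineage, ran from 10.65 to 12 (median 11.38) in GM501 twins and from 11.50 to 11.96 (median 11.82) in KSOM(aa) controls and fell by 0.47 ± 0.15 (adjusted p = 0.0442). Tead4, which acts upstream of Cdx2, fell by 0.82 ± 0.21. Of these 4 regulators, Gata2 alone passed with twins 7 to 10, where Tfap2c, Cdx2 and Tead4 differed by -0.38, -0.25 and -0.13.

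The keratins of the same epithelium showed how much the set of twins matters. Krt18 differed by -0.38 ± 0.10 with all twins and -0.12 ± 0.07 with twins 7 to 10, at signals near 18. Krt8, named after its values were seen like Eomes, ran 16.69 to 16.88 in twins 7 to 10, 15.00 to 15.59 in twins 1 to 6 and 16.57 to 17.05 in controls. Its difference was -0.89 ± 0.24 (adjusted p = 0.0257) with all twins and 0.00 ± 0.10 with twins 7 to 10. Eomes, a T-box factor of trophoblast stem cells, differed by -0.73 ± 0.23 and -0.31 ± 0.26. Slc2a3, the high-affinity glucose carrier of the trophectoderm at chr6:122727809-122802363, ran from 10.27 to 12.74 (median 10.92) in GM501 twins and from 12.77 to 13.38 (median 12.96) in KSOM(aa) controls, with no overlap, and fell by 1.71 ± 0.25 (adjusted p = 0.000637), and by 0.84 ± 0.15 with twins 7 to 10.

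Epiblast genes showed fewer changes. Of 21 tested, 1 rose and 3 fell as deposited and none rose and 6 fell after centring, with a median difference of -0.26 and -0.50, and nothing passed with twins 7 to 10 alone, where the median was 0.06. Pou5f1, the core pluripotency factor, ran from 7.72 to 10.65 (median 8.84) in GM501 twins and from 9.32 to 10.09 (median 9.79) in KSOM(aa) controls, a difference of -0.69 ± 0.29 (adjusted p = 0.1). Nanog ran from 10.12 to 14.70 (median 13.42) in GM501 twins and from 12.74 to 15.17 (median 13.73) in KSOM(aa) controls, a difference of -1.04 ± 0.51 (adjusted p = 0.139), and Sox2 differed by -0.56 ± 0.31 (adjusted p = 0.188). None of the 3 passed, and with twins 7 to 10 their differences were 0.28, 0.25 and 0.06. Those that passed were Zfp42, also called Rex1, at -1.22, Sall4 at -1.47 and Tfcp2l1 at -1.19, which fell, and Klf2 at 0.45, which rose as deposited and did not pass after centring. These 4 differed by -0.34, -0.07, 0.02 and 0.20 with twins 7 to 10.

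Many genes of the primitive endoderm and its matrix were lower with all 10 twins. Of 22 genes tested on that list, none rose and 11 fell as deposited and 16 after centring (6.92% and 12.7% of all genes). The median difference was -0.70 as deposited, and 1 fell with twins 7 to 10 alone (median -0.19). Gata6, the earliest factor of the lineage, did not pass (-0.10 ± 0.21, adjusted p = 0.743). Of the other defining markers, Gata4 had medians of 5.70 in GM501 twins and 6.20 in controls, and Lama1 is given below. Sox17 went the other way at low signal, with medians of 4.72 in GM501 twins and 4.46 in controls, and Pdgfra was not on the array. Cubn, the endocytic receptor cubilin, ran from 8.19 to 12.50 (median 9.61) in GM501 twins and from 9.67 to 14.87 (median 13.40) in KSOM(aa) controls and fell by 2.91 ± 0.69 (adjusted p = 0.015); with twins 7 to 10 it differed by -1.64 ± 0.91 (adjusted p = 0.437). Lama1, a laminin chain, ran from 7.21 to 11.82 (median 8.30) in GM501 twins and from 9.82 to 12.73 (median 11.86) in KSOM(aa) controls and fell by 2.65 ± 0.56. Within the twins Lama1 lay at 9.04 to 11.82 in twins 7 to 10 and 7.21 to 8.41 in twins 1 to 6, and its difference with twins 7 to 10 was -0.86 ± 0.51, which did not pass.

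Nid2, a nidogen that links laminin to collagen, was the member of that list that passed in all 3 settings. It ran from 5.33 to 6.24 (median 5.86) in GM501 twins and from 6.29 to 8.21 (median 7.32) in KSOM(aa) controls, with no overlap, and fell by 1.45 ± 0.19 (adjusted p = 0.000336) and by 1.28 ± 0.28 with twins 7 to 10. Hpse, the heparanase that trims heparan sulfate of the matrix, ran from 4.89 to 6.16 (median 5.19) in GM501 twins and from 6.02 to 8.65 (median 7.49) in KSOM(aa) controls and fell by 1.97 ± 0.28 (adjusted p = 0.000542) and by 2.16 ± 0.39 with twins 7 to 10. On the list of matrix adhesion and implantation, 8 of 20 genes fell and none rose, among them Erbb3, a neuregulin receptor, at -1.66 and Nid1 at -1.39. Only Nid2 and Hpse passed with twins 7 to 10, where Erbb3 and Nid1 differed by -0.03 and -0.09.

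**Figure D4:**
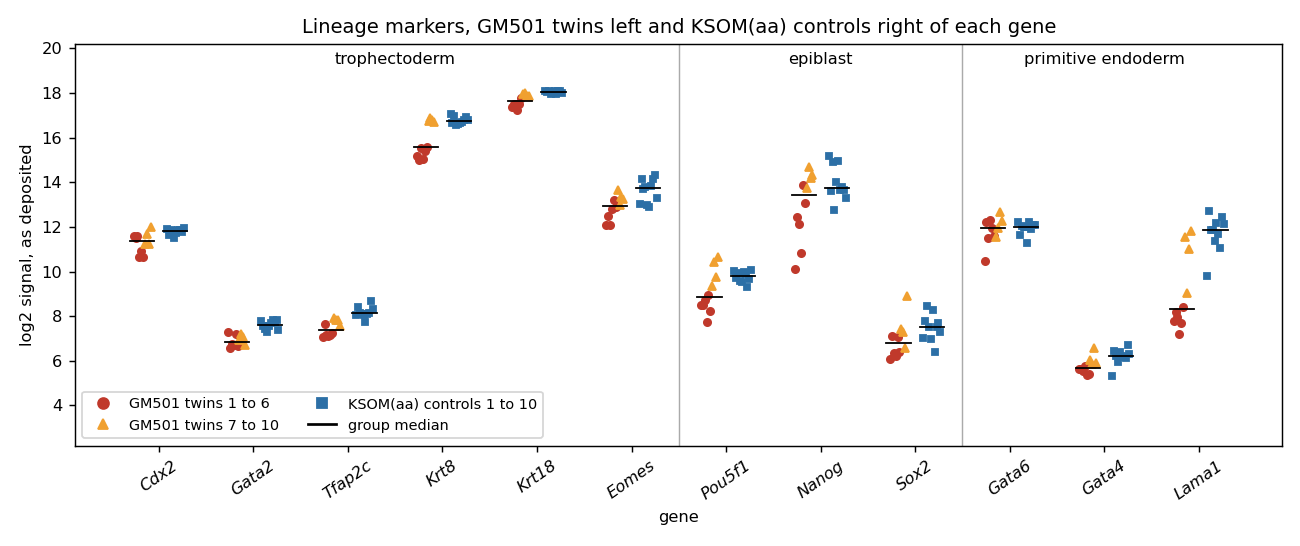
Deposited log2 signals of 12 lineage markers, with GM501 twins left and KSOM(aa) controls right of each gene; each point is 1 blastocyst and the bar is the group's median. Gata2 separates the groups fully, Krt8 and Lama1 are lower mainly in twins 1 to 6, and Nanog, Sox2 and Gata6 overlap. The markers Sox17, Fgf4 and Tdgf1, also on the array, are not drawn.

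Amino acid carriers had the lowest median difference among the lists with 10 or more genes tested, with all twins. Of 23 tested, 1 rose and 14 fell as deposited, with a median difference of -1.14 against 0.11 over all genes; after centring none rose and 15 fell. With twins 7 to 10 alone 1 rose and 1 fell, with a median of -0.16. Slc7a8, a carrier of large neutral amino acids at chr14:54722215-54781886, had the largest fall among the genes named. It ran from 7.35 to 11.92 (median 8.96) in GM501 twins and from 11.01 to 13.77 (median 12.20) in KSOM(aa) controls and fell by 3.12 ± 0.54 (adjusted p = 0.00295), with -2.29 ± 0.64 in twins 7 to 10, which did not pass.

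Slc3a2, the heavy chain with which Slc7a8 and related light chains reach the membrane, ran from 9.59 to 12 (median 10.28) in GM501 twins and from 11.98 to 12.64 (median 12.31) in KSOM(aa) controls and fell by 1.70 ± 0.32. Only 1 twin, at 12 log2 units, lay above the lowest control, at 11.98. Within the twins it lay at 11.62 to 12 in twins 7 to 10 and 9.59 to 10.71 in twins 1 to 6, and it passed with twins 7 to 10 too (-0.56 ± 0.12, adjusted p = 0.0309). Slc38a4, a carrier of small neutral amino acids, ran from 12.16 to 14.55 (median 12.85) in GM501 twins and from 14.13 to 15.07 (median 14.72) in KSOM(aa) controls and fell by 1.57 ± 0.24. Slc7a6, another partner of Slc3a2, fell by 1.51 ± 0.28. The last 2 of these, with twins 7 to 10, differed by -0.78 and -0.65 and did not pass.

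Aminoacyl-tRNA synthetases, which load amino acids for translation, fell together in number. Of 18 cytosolic ones tested, 16 fell and none rose in both settings (median difference -1.07), and none passed with twins 7 to 10 alone (limma, 1 higher and 4 lower at an unadjusted p under 0.05; median -0.12). Wars ran from 7.61 to 10.93 (median 8.66) in GM501 twins and from 10.25 to 11.76 (median 10.98) in KSOM(aa) controls and fell by 1.91 ± 0.36 (adjusted p = 0.0051). Gars ran from 12.34 to 15.72 (median 13.77) in GM501 twins and from 15.45 to 16.15 (median 15.89) in KSOM(aa) controls and fell by 1.68 ± 0.36. Nars fell by 1.39 ± 0.33 and Qars by 0.90 ± 0.20. In twins 7 to 10 the 4 differed by -0.70, -0.38, -0.17 and -0.23. Gars lay at 15.10 to 15.72 in twins 7 to 10 and in twins 1 to 6 at 12.34 to 13.82, against 15.45 to 16.15 in controls.

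Several amino acid carriers and tRNA synthetases are known targets of ATF4, the factor that responds to amino acid shortage. Of 21 other ATF4 targets and amino acid synthesis genes tested, 7 fell as deposited and 9 after centring and none rose, and with twins 7 to 10 alone none fell and 1 rose. Ddit3, the stress factor CHOP, fell by 1.44 ± 0.32, with -1.61 ± 0.39 in twins 7 to 10, which did not pass (adjusted p = 0.0563). Psat1, of serine synthesis, fell by 1.65 ± 0.38, Asns, asparagine synthetase, by 0.92 ± 0.22, and Eif4ebp1, which restrains translation, by 0.78 ± 0.16. In twins 7 to 10 the last 3 differed by -0.45, -0.32 and -0.54 and did not pass.
The Asns window is shown with capitals on TGATGNAA, the core of a C/EBP-ATF response element, searched on both strands.
Asns (chr6:7693160-7693459, minus strand): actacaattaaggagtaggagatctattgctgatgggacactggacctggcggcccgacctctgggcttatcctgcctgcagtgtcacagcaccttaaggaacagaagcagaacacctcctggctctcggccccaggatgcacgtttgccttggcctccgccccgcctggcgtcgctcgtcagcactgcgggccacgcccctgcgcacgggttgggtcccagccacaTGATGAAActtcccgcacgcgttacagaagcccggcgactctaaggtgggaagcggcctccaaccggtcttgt
It held 1 match. Of the 20 genes of the ATF4 list with a window, 7 held one in at least 1 window, as did 4 of 11 synthetase genes and 2 of 16 amino acid carriers. Counted by window, 7 of 25, 4 of 11 and 3 of 26 held one, and 4.0% of all windows did. The carriers with a match were Slc1a4 and Slc7a7, and the synthetases were Gars, Iars, Tars and Yars.

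Genes of protein folding in the endoplasmic reticulum fell in part. Of 24 tested, 7 fell and none rose as deposited and 12 fell after centring, with medians of -0.52 and -0.76. Sel1l, of the degradation complex of that compartment, ran from 6.09 to 7.03 (median 6.45) in GM501 twins and from 6.60 to 7.97 (median 7.28) in KSOM(aa) controls and fell by 0.86 ± 0.15 (adjusted p = 0.00295), and by 0.87 ± 0.19 with twins 7 to 10, the only member that passed there. Herpud1 fell by 1.71 ± 0.49 and Xbp1, the spliced stress factor, by 1.02 ± 0.25, and Hyou1, a chaperone, by 0.63 ± 0.17, against -0.46, -0.58 and -0.19 in twins 7 to 10. Of 30 genes of transport to the Golgi and of glycosylation, 6 fell and 1 rose as deposited, led by Rpn1, Stt3a and Ddost, which are parts of the oligosaccharyltransferase, at -1.95, -0.75 and -0.81. Sec22b, a vesicle fusion protein, differed by 0.51 and did not pass after centring. Of 16 cytosolic heat shock genes, 1 rose and 3 fell. The rise was Cryab, a small heat shock protein, at 1.27 ± 0.30, and the falls were Ahsa1, Fkbp4 and Hsph1, all partners of HSP90 or HSP70, between -1.34 and -0.86. In twins 7 to 10, where none of these 8 genes of transport, glycosylation or heat shock passed, Rpn1, Stt3a, Ddost, Sec22b, Cryab, Ahsa1, Fkbp4 and Hsph1 differed by -0.50, -0.31, -0.39, 0.31, 0.97, -0.17, -0.20 and -0.11.

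Some genes of glucose uptake and of the first steps of glycolysis were lower. Of 20 genes of glycolysis and glucose transport, 6 fell and none rose as deposited, and with twins 7 to 10 alone 1 fell, Slc2a3, described above. Hk2, hexokinase, fell by 1.18 ± 0.36, Pfkp, a phosphofructokinase, by 0.80 ± 0.24 and Tpi1 by 1.06 ± 0.31 (adjusted p = 0.0333). The differences of these 3 with twins 7 to 10 were 0.00, -0.57 and 0.03. Of 13 hypoxia targets, 2 rose and 3 fell as deposited. Ndrg1, a stress-regulated gene at chr15:66929318-66969641, ran from 13.56 to 14.29 (median 13.97) in GM501 twins and from 14.51 to 15.63 (median 15.00) in KSOM(aa) controls, with no overlap, and fell by 1.12 ± 0.14 (adjusted p = 0.000179) and by 0.95 ± 0.18 with twins 7 to 10. Vegfa, the endothelial growth factor, fell by 1.02 ± 0.24 and P4ha2, a collagen hydroxylase, by 0.60 ± 0.16. Bnip3l, a mitophagy receptor on the same list, went the other way: it ran from 10.10 to 10.48 (median 10.34) in GM501 twins and from 9.50 to 10.12 (median 9.77) in KSOM(aa) controls and rose by 0.54 ± 0.09 (adjusted p = 0.00234). Vegfa, P4ha2 and Bnip3l, with twins 7 to 10, differed by -0.86, -0.51 and 0.48 and did not pass.

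Among 21 tricarboxylic acid cycle genes, 6 fell as deposited and 12 after centring, among them Ogdh at -1.50, Sdha at -0.90, Dlst at -0.83 and Pdhb at -0.84, against -0.34, -0.21, -0.13 and -0.42 with twins 7 to 10. Of 36 nuclear genes of oxidative phosphorylation, 2 rose and 6 fell as deposited, with a median difference of -0.01 against 0.11 over all genes. None of the cycle genes and 2 of the oxidative phosphorylation genes fell with twins 7 to 10 alone, with medians of -0.13 and -0.15. Ndufa9, a subunit of complex I, ran from 14.56 to 15.55 (median 15.20) in GM501 twins and from 15.52 to 15.77 (median 15.69) in KSOM(aa) controls and fell by 0.55 ± 0.11 (adjusted p = 0.00761), and by 0.41 ± 0.08 with twins 7 to 10. None of 28 mitochondrial ribosomal proteins passed in any of the 3 settings, with a median difference of 0.16 as deposited and -0.08 after centring. None of 18 cytosolic ribosomal proteins passed as deposited (median 0.07), and 2 fell after centring (median -0.17), as did 12.7% of all genes. At an unadjusted p under 0.05 in limma, as deposited, 5 of the 28 were higher and 2 lower, as were 1 and 1 of the 18; over all 18086 genes 6783 had such a p.

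Zinc genes moved in opposite directions. Of 14 tested, 2 rose and 3 fell as deposited and 2 rose and 4 fell after centring. Mt1, a metallothionein that binds zinc, lies at chr8:94178883-94180327. It ran from 11.03 to 14.06 (median 12.84) in GM501 twins and from 10.44 to 11.64 (median 11.01) in KSOM(aa) controls and rose by 1.74 ± 0.32 (adjusted p = 0.00421). Mt2 ran from 10.84 to 13.57 (median 11.48) in GM501 twins and from 10.38 to 11.18 (median 10.54) in KSOM(aa) controls and rose by 1.13 ± 0.28. Slc39a4, the zinc importer ZIP4, ran from 7.26 to 9.99 (median 8.59) in GM501 twins and from 9.71 to 11.93 (median 11.04) in KSOM(aa) controls and fell by 2.32 ± 0.38 (adjusted p = 0.00221). Slc39a1, another importer, fell by 0.63 ± 0.14. None of these 4 passed with twins 7 to 10 alone, where they differed by 0.73, 0.54, -1.39 and -0.35. Slc39a2, an importer outside the list that is named after its values were seen, ran from 6.58 to 7.69 (median 7.03) in GM501 twins and from 7.51 to 9.22 (median 8.57) in KSOM(aa) controls and fell by 1.37 ± 0.21, and by 1.50 ± 0.31 with twins 7 to 10, which passed.
The Mt1 window is shown with capitals on TGCACNC or TGCGCNC, the core of the metal response element, searched on both strands. By the coordinates given, it begins shortly before the listed start of the gene and lies mostly past it.
Mt1 (chr8:94178839-94179138, plus strand): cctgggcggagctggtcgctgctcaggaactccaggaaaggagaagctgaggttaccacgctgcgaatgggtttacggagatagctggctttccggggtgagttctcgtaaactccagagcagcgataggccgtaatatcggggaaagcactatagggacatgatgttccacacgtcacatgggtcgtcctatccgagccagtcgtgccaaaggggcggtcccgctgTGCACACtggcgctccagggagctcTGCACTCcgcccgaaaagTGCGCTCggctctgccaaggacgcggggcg
It held 3 matches. Of 14 zinc genes tested 11 had a window, and 7 of these held a match. Slc39a4 and Slc39a1 were not among the 7, and whether they had a window is not given here. Counted by window, 7 of 12 held a match, and 25.7% of all windows did.

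Redox and iron genes changed singly. Of 21 genes of the NRF2 and glutathione list, 2 rose and 4 fell as deposited and none rose and 6 fell after centring. Keap1, the sensor that holds NRF2 in check, lies at chr9:21229730-21239332. It ran from 6.74 to 7.27 (median 7.07) in GM501 twins and from 7.35 to 7.98 (median 7.65) in KSOM(aa) controls, with no overlap, and fell by 0.61 ± 0.09 (adjusted p = 0.000793) and by 0.66 ± 0.10 with twins 7 to 10. Txnrd1, thioredoxin reductase, fell by 1.11 ± 0.25, Gss, glutathione synthetase, by 0.74 ± 0.16 and Gpx1, a glutathione peroxidase, by 0.57 ± 0.15. Tfrc, the transferrin receptor, fell by 1.31 ± 0.30 and Slc40a1, the iron exporter, by 1.45 ± 0.48, the 2 of 13 iron genes that fell as deposited. Txnrd1, Gss, Gpx1, Tfrc and Slc40a1, with twins 7 to 10, differed by -0.32, -0.41, -0.42, -0.39 and -1.78, and none passed.

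Among genes of membrane lipid and 1-carbon metabolism, falls outnumbered rises. Of 22 phospholipid synthesis genes, 1 rose and 4 fell as deposited. Chpt1, which makes phosphatidylcholine, ran from 8.68 to 9.94 (median 9.61) in GM501 twins and from 8.04 to 9.18 (median 8.48) in KSOM(aa) controls and rose by 0.96 ± 0.18, while Chka, choline kinase, ran from 7.90 to 10.95 (median 10.12) in GM501 twins and from 10.22 to 11.59 (median 11.29) in KSOM(aa) controls and fell by 1.40 ± 0.33. Of 15 genes of the choline, betaine and methionine cycle, Bhmt rose, and Chdh, which makes betaine from choline, and Slc44a1, a choline carrier, fell, at -0.49 and -0.75. Of 14 folate genes 3 fell: Shmt2, the mitochondrial serine hydroxymethyltransferase, at -1.72, Mthfd1l at -1.02 and Folr1, a folate receptor, at -0.71. No gene of the 3 lists passed with twins 7 to 10, where Chpt1 and Chka differed by 0.53 and -0.83, Chdh and Slc44a1 by -0.38 and 0.06, and Shmt2, Mthfd1l and Folr1 by -0.45, -0.38 and -0.18.

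Growth control and lysosome genes fell in part. Of 22 genes of mTORC1 and growth signalling, 1 rose and 6 fell as deposited. Tsc2, a brake on mTORC1, ran from 6.53 to 8.57 (median 7.40) in GM501 twins and from 8.18 to 8.98 (median 8.57) in KSOM(aa) controls and fell by 1.04 ± 0.20. Castor1, an arginine sensor, fell by 1.13 ± 0.21 and Eif4ebp2, a translation repressor, by 0.71 ± 0.12. The 3, with twins 7 to 10, differed by -0.55, -0.91 and -0.44 and did not pass. Of 26 lysosome and autophagy genes, 8 fell and none rose. Sqstm1, the autophagy receptor p62, ran from 6.13 to 8.60 (median 7.02) in GM501 twins and from 8.19 to 9.83 (median 8.63) in KSOM(aa) controls and fell by 1.63 ± 0.25 (adjusted p = 0.00136). Psap, the precursor of saposins, fell by 1.31 ± 0.32, Ctsa, cathepsin A, by 0.88 ± 0.20 and Atg7 by 0.72 ± 0.18. These 4 genes, with twins 7 to 10, differed by -1.03, -0.14, -0.44 and -0.49 and did not pass. Pla2g15, the lysosomal phospholipase at chr8:106150354-106164718, was among the 12 largest falls that the naming rule took. It ran from 11.43 to 14.66 (median 12.66) in GM501 twins and from 15.13 to 15.54 (median 15.36) in KSOM(aa) controls, with no overlap, and fell by 2.34 ± 0.42 with all twins and by 0.81 ± 0.10 with twins 7 to 10 (adjusted p = 0.00161).

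Genes of the cavity and the epithelial seal were lower with all twins. Of 13 ion and water transport genes, 6 fell and none rose, with a median difference of -0.51 and of -0.26 with twins 7 to 10 alone. Trpv5, a calcium channel, ran from 6.70 to 12 (median 9.10) in GM501 twins and from 10.50 to 13.49 (median 11.84) in KSOM(aa) controls and fell by 2.70 ± 0.47. Aqp3, a water and glycerol channel, fell by 2.09 ± 0.45, Aqp8 by 1.24 ± 0.29 and Aqp9 by 0.68 ± 0.19. The 4 channels, with twins 7 to 10, differed by -2.23, -0.60, -0.80 and -0.77 and did not pass. Of 22 junction genes 7 fell and none rose, while with twins 7 to 10 alone none passed (3 higher and 1 lower at an unadjusted p under 0.05) and the median was 0.15. Cldn4, a claudin, ran 11.45 to 12.62 in twins 1 to 6, 15.64 to 16.03 in twins 7 to 10 and 15.01 to 16.35 in controls. Its difference was -2.32 ± 0.58 with all twins and -0.10 ± 0.18 with twins 7 to 10. Cdh1, E-cadherin, differed by -1.03 and -0.07, Cxadr by -1.30 and -0.44, and F11r by -1.37 and 0.20, in the same order.

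The list of actin, polarity and myosin had a median difference of -0.51, and those of the Hippo pathway and of signalling had -0.06 and -0.08. Of 20 genes of actin, polarity and myosin, 6 fell, among them Actn4, an actin crosslinker, at -1.59, Flna at -1.58, Msn at -1.31 and Tln1 at -1.16, and with twins 7 to 10 none fell and 1 rose. Of 19 Hippo genes 3 fell, Mob1a at -1.29, Lats2 at -0.62 and Tead4. Of 25 genes of FGF, Nodal, BMP and WNT signalling, 5 fell and none rose, among them Furin, which cuts Nodal precursors, at -0.74, Wnt7b at -0.32, Smad7 at -0.47 and Fgfr2, the FGF receptor of trophectoderm, at -1.18. None of these 10 genes passed with twins 7 to 10, where Actn4, Flna, Msn and Tln1 differed by -0.26, -0.55, -0.08 and 0.13, Mob1a and Lats2 by -0.31 and -0.33, and Furin, Wnt7b, Smad7 and Fgfr2 by -0.36, -0.10, -0.42 and 0.20. Efnb1, an ephrin on the X chromosome that is named after its values were seen, ran from 6.93 to 8.60 (median 7.52) in GM501 twins and from 8.60 to 10.39 (median 9.69) in KSOM(aa) controls and fell by 1.96 ± 0.24 with all twins and by 1.63 ± 0.32 with twins 7 to 10.

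Other large falls that followed the naming rule came from genes with varied roles. Alppl2, an embryonic alkaline phosphatase, ran from 5.16 to 9.76 (median 7.44) in GM501 twins and from 8.81 to 11.43 (median 10.33) in KSOM(aa) controls and fell by 3.00 ± 0.58. Usf2, a transcription factor, lay at 6.31 to 8.74 in twins 1 to 6 and 10.54 to 11.51 in twins 7 to 10, against 11.17 to 11.62 in controls, and fell by 2.40 ± 0.56. Ppp1ca, a phosphatase subunit, fell by 2.21 ± 0.51, Nynrin by 2.36 ± 0.54 and Dmkn, dermokine, by 2.23 ± 0.54. None of these 5 passed with twins 7 to 10, where Alppl2 differed by -1.46 ± 0.54, Usf2 by -0.34 ± 0.15, Ppp1ca by -0.45 ± 0.15, Nynrin by -0.37 ± 0.22 and Dmkn by -1.95 ± 0.45. Among carriers of vitamins and other solutes 8 of 23 fell, with Slc22a5, the carnitine carrier OCTN2, at -2.16, Slc28a3 at -1.53 and Slc29a1 at -1.15, both nucleoside carriers, and Slc19a2, a thiamine carrier, at -1.11, against -1.80, -0.78, -0.77 and -0.82 with twins 7 to 10.

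The median differences of the cell cycle lists had opposite signs with all twins and with twins 7 to 10. Of 28 mitosis genes none rose and 2 fell, Kif20a at -1.06 and Bub1b at -1.16, a share of falls near the 6.92% of all genes. The median difference of the list was -0.25 with all twins and 0.19 with twins 7 to 10. Of 29 replication genes 3 rose and 1 fell as deposited (6.6% and 6.92% of all genes). Gmnn, the inhibitor of licensing, rose by 0.70 ± 0.20, Rfc4 by 0.50 ± 0.15 and Prim1 by 0.49 ± 0.15, none of which passed after centring, and Mcm2, of the helicase, fell by 1.41 ± 0.44. In twins 7 to 10 alone 2 replication genes rose and none fell. Those were Mcm3 and Mcm4, at 0.96 ± 0.17 and 0.69 ± 0.12, and Rrm1, of the ribonucleotide reductase, was higher there by 0.68 ± 0.14, all 3 named after their values were seen. Over all 10 twins the 3 differed by -0.49 ± 0.41, -0.31 ± 0.28 and -0.76 ± 0.45, and none passed. Of 22 pentose phosphate and nucleotide genes, Taldo1 and Cad fell, at -1.10 and -1.03, a share not far from the 6.92% of all genes. Kif20a and Bub1b, with twins 7 to 10, differed by 0.09 and 0.00, Gmnn, Rfc4, Prim1 and Mcm2 by 0.13, 0.19, 0.28 and 0.21, and Taldo1 and Cad by -0.56 and 0.05.

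Of all genes, 6.6% rose and 6.92% fell as deposited, which is the background for the lists of chromatin, RNA and protein turnover. Of 15 genes of DNA methylation, Dppa3, which protects the maternal genome from demethylation, ran from 13.27 to 15.49 (median 14.37) in GM501 twins and from 12.40 to 14.26 (median 13.13) in KSOM(aa) controls and rose by 1.16 ± 0.27, called in both settings, and Tet2 and Trim28 fell, at -0.72 and -1.60. Of 27 histone modifiers, Eed and Hdac2 rose as deposited, at 0.57 and 0.62, and 4 fell, among them Kdm6b at -1.03 and Kat2a at -1.06. Igf2r, the growth-limiting receptor, was the 1 imprinted gene of 17 that fell as deposited, at -1.41. Of 30 ribosome biogenesis genes 5 fell, among them Nol6, Rrp9, Ubtf and Noc2l, between -1.37 and -0.69. Of 25 translation factors 2 rose and 7 fell, with Eif4e at 0.62 and Eif2s2 at 0.29 as the rises, neither of which passed after centring, and Eif2b2 at -1.52 and Eif6 at -0.69 among the falls. Of 27 splicing genes 3 fell, Srsf1, Prpf8 and Prpf3, between -1.54 and -0.45, and of 31 proteasome genes 3 fell, Psmd13, Psmd2 and Psmd3, between -1.35 and -0.97. Dppa3, Tet2 and Trim28, with twins 7 to 10, differed by 0.63, -0.58 and 0.28, Eed, Hdac2, Kdm6b and Kat2a by 0.46, 0.34, -0.27 and -0.20, Igf2r by 0.02, Nol6, Rrp9, Ubtf and Noc2l by -0.31, -0.13, -0.19 and -0.06, Eif4e, Eif2s2, Eif2b2 and Eif6 by 0.30, 0.25, -0.08 and -0.11. The splicing and proteasome genes named differed there by -0.23, 0.06, -0.21, -0.30, 0.03 and 0.02, in the order given, and none of these genes passed.

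Few genes with maternal stores or early activation were called, and their rises, at low signal for the maternal genes, depended on centring. Of 17 maternal oocyte genes tested 3 rose and 1 fell as deposited, and none rose after centring, with medians of 0.23 and -0.01. Gdf9, Tle6 and Omt2b differed by 0.42, 0.26 and 0.53, with Gdf9 at 5.30 to 6.05 in GM501 twins and 5.14 to 5.65 in controls. The fall was Khdc3, also called Filia, of the subcortical maternal complex. It ran from 11.51 to 13.15 (median 12.38) in GM501 twins and from 13.22 to 14.72 (median 13.83) in KSOM(aa) controls, with no overlap, and fell by 1.68 ± 0.22 (adjusted p = 0.000336) and by 1.20 ± 0.23 with twins 7 to 10. The summed signal of the maternal list, which includes Khdc3, was lower, at 12.07 to 13.37 (median 12.70) in GM501 twins and 13.41 to 14.79 (median 13.96) in controls. Genes of high signal weigh most in that sum. Khdc3 alone had medians of 12.38 and 13.83, so the sum mostly repeats its fall. Of the 17 maternal genes tested, 14 had a difference above 0 as deposited. The summed signal of the 2-cell list overlapped, with medians of 13.08 and 13.30. Of 7 genes tested on the list of the 2-cell stage, Sp110 and Usp17le rose as deposited, at 0.93 and 0.64, and none after centring. Of 24 p53 and apoptosis genes 1 rose and 2 fell, Bcl2l11 at 0.41, Trp53inp1 at -1.08 and Pmaip1 at -0.92. These shares are near those of all genes, 6.6% and 6.92%. Gdf9, Tle6 and Omt2b, with twins 7 to 10, differed by 0.23, 0.23 and 0.00, Sp110 and Usp17le by 0.65 and 0.62, and the 3 apoptosis genes by 0.16, -0.81 and -0.74, and none passed.

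**Figure D5:**
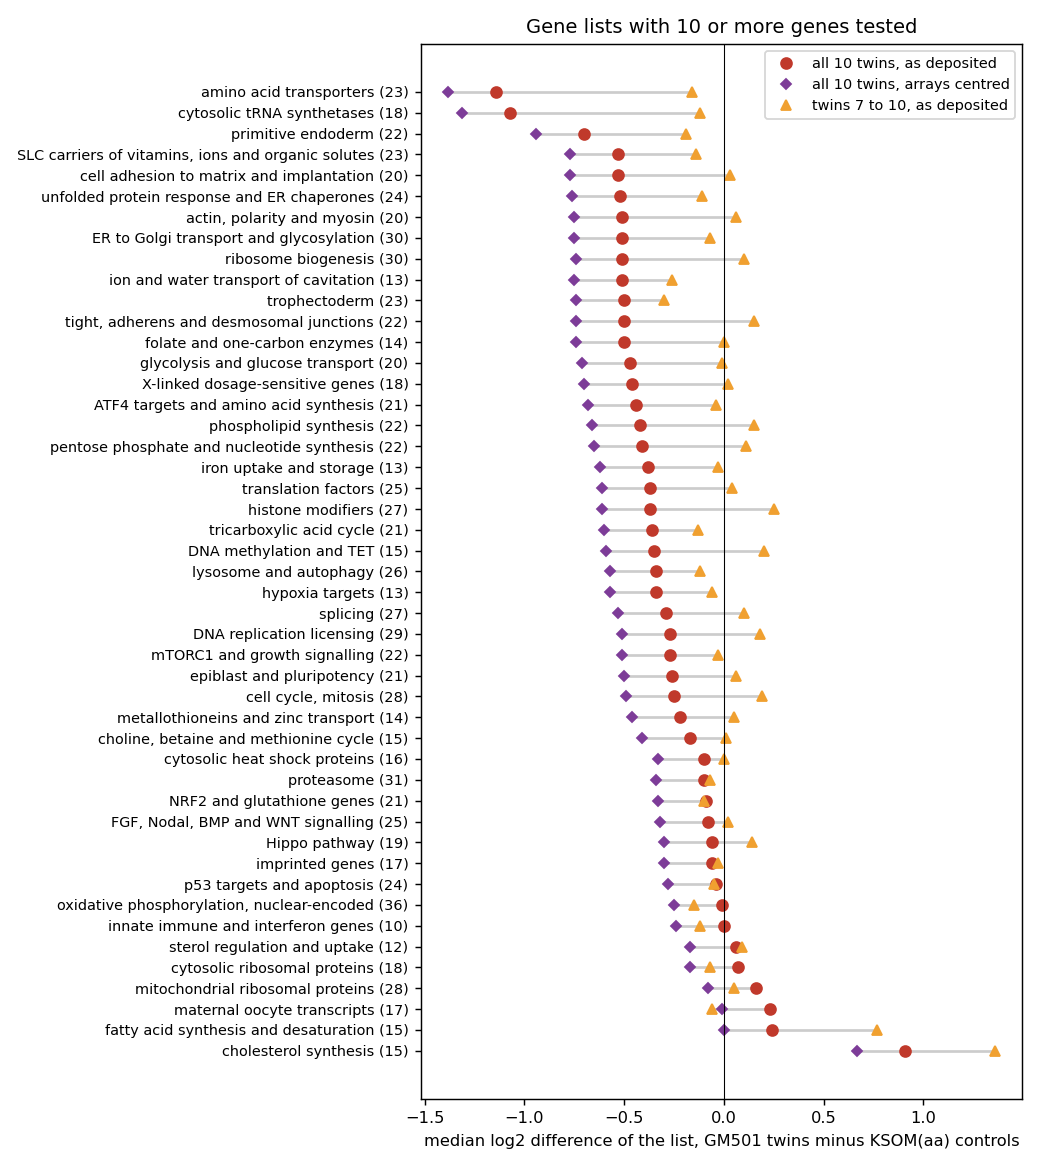
Median log2 difference, GM501 twins minus KSOM(aa) controls, of each gene list with 10 or more genes tested (number in brackets), with all 10 twins as deposited, with all 10 twins after centring, and with twins 7 to 10 as deposited. Amino acid carriers and tRNA synthetases are lowest with all twins, at -1.14 and -1.07, and close to 0 with twins 7 to 10; cholesterol synthesis is highest in all 3.

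Few genes were called in the same direction in all 3 settings, as deposited, after centring and with twins 7 to 10 alone: 23 rose (0.127% of genes) and 42 fell (0.232%). For falls centring removed none, so the 42 are all those called as deposited and with twins 7 to 10. The overlap is a description, since the settings share arrays, and genes not already described are named after their values were seen. With the array median as a covariate, 16 of the 23 rises and 25 of the 42 falls still passed. Named rises that did not were Ephx2, Ldoc1 and Ogfrl1. Named falls that did not were Slc3a2, Ndufa9, Cd9, Cd99l2, Slc44a4, Slc22a4, Capns1, Coq3, Cyba, Pold4, Plekhh1 and Reep6. Of the 23 that rose, 13 had a symbol named here and 10 were predicted genes or small RNAs. Beside Idi1, Fdps, Fdft1, Sqle, Cyp51, Acsl4, Stard4 and Acat3, the rises were Echdc1, an ethylmalonyl-CoA decarboxylase, at 1.38 ± 0.19, Ephx2, an epoxide hydrolase, at 1.16 ± 0.26, Guca1a, a guanylate cyclase activator, at 2.27 ± 0.61, Ldoc1 at 0.98 ± 0.19 and Ogfrl1 at 1.55 ± 0.29. These 5 genes, with twins 7 to 10, differed by 1.06, 1.43, 3.03, 0.90 and 1.19. Guca1a was widely spread, running from 5.64 to 11.27 (median 8.46) in GM501 twins and from 5.10 to 7.17 (median 6.12) in KSOM(aa) controls.

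The falls of the same set included cell surface proteins. Bace1, the beta-secretase, ran from 7.09 to 8.23 (median 7.52) in GM501 twins and from 8.45 to 9.25 (median 9.08) in KSOM(aa) controls, with no overlap, and fell by 1.35 ± 0.17 (adjusted p = 0.000179). Cd82, a tetraspanin, ran from 8.44 to 9.43 (median 8.94) in GM501 twins and from 9.64 to 10.38 (median 10.06) in KSOM(aa) controls, with no overlap, and fell by 1.15 ± 0.14. Cd9, another tetraspanin, fell by 0.40 ± 0.11 and Cd99l2 by 0.60 ± 0.15. The 4 genes, with twins 7 to 10, differed by -0.91, -0.83, -0.56 and -0.78. Dkkl1, a Dickkopf-like secreted protein, ran from 9.16 to 11.91 (median 10.41) in GM501 twins and from 10.82 to 12.15 (median 11.58) in KSOM(aa) controls and differed by -1.09 ± 0.31 with all twins and -2.06 ± 0.20 with twins 7 to 10 alone. Slc44a4 and Slc22a4, carriers of choline-related and zwitterionic solutes, fell by 1.46 ± 0.28 and 1.38 ± 0.36.

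Other falls of the set were enzymes and cell proteins of many kinds. Aprt, which salvages adenine, ran from 8.93 to 9.96 (median 9.47) in GM501 twins and from 10.19 to 10.59 (median 10.40) in KSOM(aa) controls, with no overlap, and fell by 0.91 ± 0.13. Capns1, the small calpain subunit, fell by 1.11 ± 0.20 and Cmtm7 by 1.29 ± 0.19, both with no overlap. G6pc3, a glucose-6-phosphatase, fell by 1.26 ± 0.17, Coq3, of coenzyme Q synthesis, by 1.25 ± 0.26, Cyba, the light chain of the NADPH oxidase, by 1.06 ± 0.31, and Pold4, a polymerase delta subunit, by 1.02 ± 0.17. Plekhf1 and Plekhh1 fell by 1.51 ± 0.21 and 1.92 ± 0.34, and Reep6, which shapes membranes of the endoplasmic reticulum, by 1.50 ± 0.30. Mov10l1, a piRNA helicase, fell by 0.79 ± 0.16 and Zfp282 by 0.66 ± 0.10. In twins 7 to 10 the differences of these 12 genes ran from -1.67 to -0.47.

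Some genes passed only in 1 of the 2 scalings. After centring and not as deposited, Mgat2, a Golgi glycosyltransferase, Fam110a, Jag2, a Notch ligand, Ccdc61, Slc27a3 and Itgb4, an integrin chain, were lower, with differences of -0.60, -0.37, -0.60, -0.57, -0.52 and -0.39 after centring and -0.37, -0.14, -0.36, -0.33, -0.28 and -0.15 as deposited. Centring lowers every difference by the same 0.24, the difference in array medians over all clusters. Over the genes tested alone, the array medians differed by -0.03. As deposited and not after centring, Fut9, a fucosyltransferase that makes the SSEA-1 epitope, ran from 4.86 to 6.25 (median 5.41) in GM501 twins and from 4.48 to 4.83 (median 4.64) in KSOM(aa) controls, with no overlap, and differed by 0.80 ± 0.14 as deposited and 0.56 ± 0.19 centred (adjusted p = 0.0509). It also differed by 1.17 ± 0.14 with twins 7 to 10. Six4, Chrnb4, Zfp229, Baz2b and Hmga2 also passed as deposited and not after centring, but for each the groups overlapped. Their differences lay between 0.42 and 0.78 as deposited and 0.18 and 0.54 centred. Six4 and Chrnb4 were near 4.76 in controls too.

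Markers of cells other than the embryo stayed low in both groups. Of the defining markers of cumulus and granulosa cells (6 on the array), oviduct epithelium (2 of 3), blood (2 of 4), fibroblasts (4) and sperm (3), gene medians ran from 3.38 to 5.98 in GM501 twins and from 3.26 to 5.74 in controls, where trophectoderm markers reached 17.64 and 18.06. In the wider lists of these cells, the summed signal of the cumulus and granulosa list ran from 10.33 to 11.79 in GM501 twins and from 11.01 to 12.21 in controls, and its 1 call, a fall, was Nr5a2, which the blastocyst's own inner cell mass expresses (-0.87). No gene of the oviduct, blood, fibroblast or sperm lists passed as deposited in limma; at an unadjusted p under 0.05, 1 of 2 blood and 2 of 5 fibroblast genes tested were higher and none of the others. Of 10 innate immune genes tested, Il1rn alone passed.

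Sex differed in number between the groups. Xist, which is expressed from the inactive X of females, was at least 15.88 log2 units in 5 of 10 GM501 twins and 7 of 10 controls, and at most 6.11 in the others, in which the Y-linked Eif2s3y was at least 7.53. Of 18 X-linked dosage-sensitive genes, 4 fell and none rose as deposited: Eif2s3x, Kdm5c, Usp9x and Rlim, at -1.09, -0.83, -1.18 and -0.84. With twins 7 to 10, of which 2 of 4 were high in Xist, the 4 differed by -0.28, -0.26, -0.08 and 0.15 and the median of the list was 0.02. With the Xist class as a term in the fit, an alternative added after the data were seen, 933 genes rose and 1025 fell.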

How the data were processed

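RNA of each blastocyst was amplified by the WT Pico method and hybridised to its own array, per the labels' protocols. The deposited values are log2 signals per transcript cluster, made with RMA in Affymetrix Expression Console on mm10, per the submitters' processing notes; versions and the log base are not given in the sources used here, and the base was taken from the range of values. RMA normalizes across arrays and gives signals relative within a cluster.

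Of 65956 clusters, 30604 carried 1 gene symbol, from the platform's annotation updated through gene IDs on GRCm38.p6 (827 changed). The cluster with the highest mean stood for each of 30142 genes, and the upper 60% by mean over the 20 arrays, 18086 genes with means of at least 4.76, entered a 2-group comparison in limma 3.58.1 under R 4.3.3 (lmFit, eBayes, two-sided, Benjamini-Hochberg over all genes tested, call at 0.05). Genes on clusters with several symbols were not analysed here. No 2 arrays were identical (r between arrays 0.93 to 0.985). The fit was tested on simulated data in which each gene varied independently. Those data held no shift shared by the genes of an array, so the test does not bear on calls that turn on the set of twins.

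The genes named were the 12 largest rises and 12 largest falls called in both settings with at least 9 of 10 twins on the called side, up to 4 called members with the smallest p of each of 53 lists, 5 lineage factors, all cholesterol synthesis genes, and the 6 genes of smallest p called in each scaling alone, without predicted genes and small RNAs (198 genes, 181 called as deposited). The members, rules and lists were chosen with earlier results of these data known. The p-values rest on the spread of these embryos, which may be technical in part, and the number of arrays limits precision. Alternatives were other scalings, filters, weights, sets of twins, a block and covariates.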

Additional observations from a re-analysis of the deposited data

Results flagged for a closer look

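A blastocyst stood apart from the other 9 of its group, by a gap past Dixon's critical value for 10 samples, in 23 of 494 gene and group combinations; chance flags about 1 in 20. The values are deposited log2 signals, each with the nearest other array of the group.

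Among GM501 twins, 1 array was far above the rest for Capsl at 11.55 in twin 2 (next 9.41), Scap at 7.86 in twin 10 (next 7.19), Mthfd1l at 9.40 in twin 10 (next 7.80), Pfkp at 7.20 in twin 10 (next 6.19), Smad7 at 6.90 in twin 10 (next 6.23), Usp17le at 7.31 in twin 9 (next 5.87), Sox2 at 8.92 in twin 10 (next 7.43), Ldoc1 at 8.73 in twin 5 (next 7.84).
Among GM501 twins, 1 array was far below the rest for Pdhb at 12.10 in twin 1 (next 13.38), Gata6 at 10.45 in twin 1 (next 11.50).

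Among KSOM(aa) controls, 1 array was far above the rest for Fads2 at 6.67 in control 9 (next 4.26), Zdhhc2 at 8.85 in control 9 (next 7.89), Gss at 8.17 in control 1 (next 7.78), Txnrd1 at 9.71 in control 9 (next 8.91), Mt2 at 11.18 in control 8 (next 10.73), Hk2 at 10.58 in control 6 (next 9.79), Mob1a at 12.28 in control 2 (next 11.71), Smad7 at 7.16 in control 9 (next 6.63), Mgat2 at 9.27 in control 4 (next 8.89).
Among KSOM(aa) controls, 1 array was far below the rest for Cldn4 at 15.01 in control 6 (next 15.81), Tfcp2l1 at 12.47 in control 5 (next 13.27), Eif6 at 11.52 in control 6 (next 11.90), G6pc3 at 8.49 in control 7 (next 9.06).

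Of the 23, 5 fell on GM501 twin 10, 4 on KSOM(aa) control 9 and 3 on KSOM(aa) control 6, and no other array had more than 2. The causes were not tested.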

How the results depend on the processing

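As deposited 2445 genes were called and after centring 2553. Quantile normalization (2448), the upper 40% of genes (2025), trend and robust fitting (2583) and the Xist class as a covariate (1958, chosen after seeing the data) kept the first count within 1.5 times. It moved to 5769 of 30142 with no filter, 7843 with array weights, 96 with the array median as a covariate, 237 with twins 7 to 10 alone and 10695 with twins 1 to 6 alone. The count after centring moved to 5288 with array weights, 199 with twins 7 to 10 and 8592 with twins 1 to 6. The numbers in the labels do not pair the samples (correlations of same-numbered samples -0.144 to 0.0722, 0 of 10 best with its own number); with the replicate block 1362 genes were called as deposited and 1556 after centring. The array median difference of 0.239 reversed to -0.03 over the genes kept (two-sided permutation test, p = 0.4). With twins 7 to 10 it was -0.002, which the choice of this set by its array medians fixes, so it is no test.

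A gene is counted as weaker if it was called as deposited, kept its sign and no longer passed, whatever the size of its difference. It is counted as reversed if the sign changed. Of 246 genes followed, 147 were weaker and 26 reversed with twins 7 to 10, where fewer arrays enter the fit. With the array median as a covariate 181 were weaker, with the block 41, after centring 24 and with the Xist class 20. Reversed differences with twins 7 to 10 were Slc44a1 0.06, Tpi1 0.03, Cad 0.05, Tfcp2l1 0.02, F11r 0.2, Tln1 0.13, Fgfr2 0.2, Kif20a 0.09, Bub1b 0.0005, Mcm2 0.21, Trim28 0.28, Igf2r 0.02, Rlim 0.15, Prpf8 0.06, Psmd2 0.03, Psmd3 0.02, Omt2b -0.004, Pou5f1 0.28, Nanog 0.25, Sox2 0.06, Gata6 0.18, Sc5d -0.002, Mcm3 0.96, Mcm4 0.69, Rrm1 0.68, Krt8 0.0015. With the array median as a covariate they were Pou5f1 0.1, Nanog 0.39, Sox2 0.08, Gata6 0.24, Ebp 0.08, Mcm3 0.69, Mcm4 0.5, Rrm1 0.64. With twins 1 to 6 they were Hmgcs1 -0.41, Mvd -0.2, Dhcr7 -0.12, Acly -0.73, Acaca -0.56, Fasn -0.79. After centring they were Dhcr7 -0.13, Acly -0.19, after quantile normalization Acly -0.0036, and with array weights Acly -0.23, Fasn -0.22. The other causes were not tested. Signal over background limits genes of low signal, and 10 embryos in each group, 4 of them in the smaller set of twins, limit precision.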
